A study of Mus musculus with 4 samples.

Results

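The factors that start and lengthen proteins on cytosolic ribosomes were followed in RNA recovered by a ribosome pulldown from mouse hippocampus. Members were all protein-coding genes of GENCODE mouse release 21 whose symbol is Eif1 to Eif6 or Eef1 to Eef2 with any further letters or digits, without Eif2s3x and Eif2s3y, which were left out of the set. The rule gave 66 of 35427 matched genes, and 65 of them were among the 14907 genes called measured, that is, kept by a filter for a minimum count of 10. Eif4e1b, which encodes a cap-binding protein related to eIF4E, was at 0 reads in all 4 files and was the 1 member that was not measured. The set also takes in regulators whose names begin with a factor's name, such as kinases, methyltransferases and inhibitors.

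The mice were C57BL/6J, 4 months old, and carried P2RY12CreER and Rpl22HA (RiboTag), so that Cre under P2RY12, active in microglia, puts an HA tag on the ribosomal protein Rpl22. All mice were fear conditioned, which pairs a place or cue with a shock. The control mice then slept for 6 h and the sleep-deprived mice were kept awake for 6 h. Each sample pooled 2 mice, RNA came from affinity purification of translating ribosomes followed by polyA enrichment, and groups were taken from the sample titles because the treatment field names sleep deprivation for all 4 samples.

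Initiation begins when eIF2 brings the initiator tRNA to the small ribosomal subunit, which eIF1, eIF1A and eIF3 keep ready to bind a message and scan for the start codon. The eIF4 proteins bind the cap, unwind the leader and recruit that subunit, and eIF5 and eIF5B then join the large subunit. In elongation eEF1A delivers each aminoacyl-tRNA, the eEF1B subunits recharge eEF1A with GTP, and eEF2 moves the ribosome along. Many messages for the translation machinery, including those of eEF1A, eEF2 and the ribosomal proteins, begin with a 5′ terminal oligopyrimidine (TOP) tract, a C followed by a run of C and T (U in RNA), through which mTORC1 signalling governs their translation.

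The files held between 14431647 and 14877011 estimated reads. Chi-square per degree of freedom between the 2 files of a group was 0.335 in control and 0.207 in sleep-deprived samples, where independent sequencing of a library gives about 1, so files within a group differed by less than sampling noise and each pair was counted as 1 sample. A group is therefore 1 library (n = 1), and no value below has a p-value or an error between mice. Values are counts scaled to library size by TMM (CPM), a ratio is sleep-deprived over control, and bracketed ranges are 95% intervals that cover counting error only. A gene is called higher or lower when the ratio is at least 2-fold and the interval excludes 1, and "past 1.5-fold" uses the smaller fold with the same interval. Microglial markers, 15 of 19 called higher, summed to 210 CPM in control against 655 CPM after sleep deprivation, a ratio of 3.12 (2.99 to 3.25), and the 12 neuronal markers summed to 4154 and 3547 CPM with 0 called. Astrocyte markers summed to 2004 and 1176 CPM, with 3 of 8 called lower. Oligodendrocyte markers summed to 3523 and 2207 CPM, with 2 of 8 called lower. Past 1.5-fold, 4 neuronal markers were lower and 1 was higher. Of all measured genes 4.24% were called higher and 5.65% lower. Both libraries thus held more reads of the neuronal than of the microglial marker list. Such sums depend on the genes listed and on their lengths, so they do not weigh cell types against each other. Every cell type expresses most factors, so the members could not be assigned to microglia, and the part of cell makeup in the differences below was not tested. Fewer cells of a type and less RNA per cell cannot be told apart in such samples.

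Over the whole set the difference was small. The summed level of the members was 8118 CPM in control against 6928 CPM after sleep deprivation, a ratio of 0.853 (0.846 to 0.861). The median ratio was 0.950, or −0.07 on the log2 scale, beside −0.01 for all measured genes, with 26 members above 1 and 39 below. Called lower were 3 of 65 members, Eef1b2, Eif3e and Eif3f, where 5.65% of all measured genes were lower. Called higher was 1, Eif4ebp1, where 4.24% of all measured genes were higher. Past 1.5-fold, 9 members were lower, beside 13.6% of all measured genes, and 2 were higher, beside 12.5%. Against all measured genes, the share of members called lower lay close to the background at both folds, and the share called higher lay below it at both. That background also holds genes of low level. Among protein-coding genes averaging 20 CPM or more, 1.42% were lower and 1.66% higher at 2-fold, and 8.88% and 10.9% past 1.5-fold. Beside these rates the members' share called lower lay above the background at both folds. Their share called higher lay close to it at 2-fold and below it past 1.5-fold. The members were not restricted to that level. These shares are descriptions with no test. The members differed from each other instead, by complex and by gene, as the plot of all member ratios shows.

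**Figure D1:**
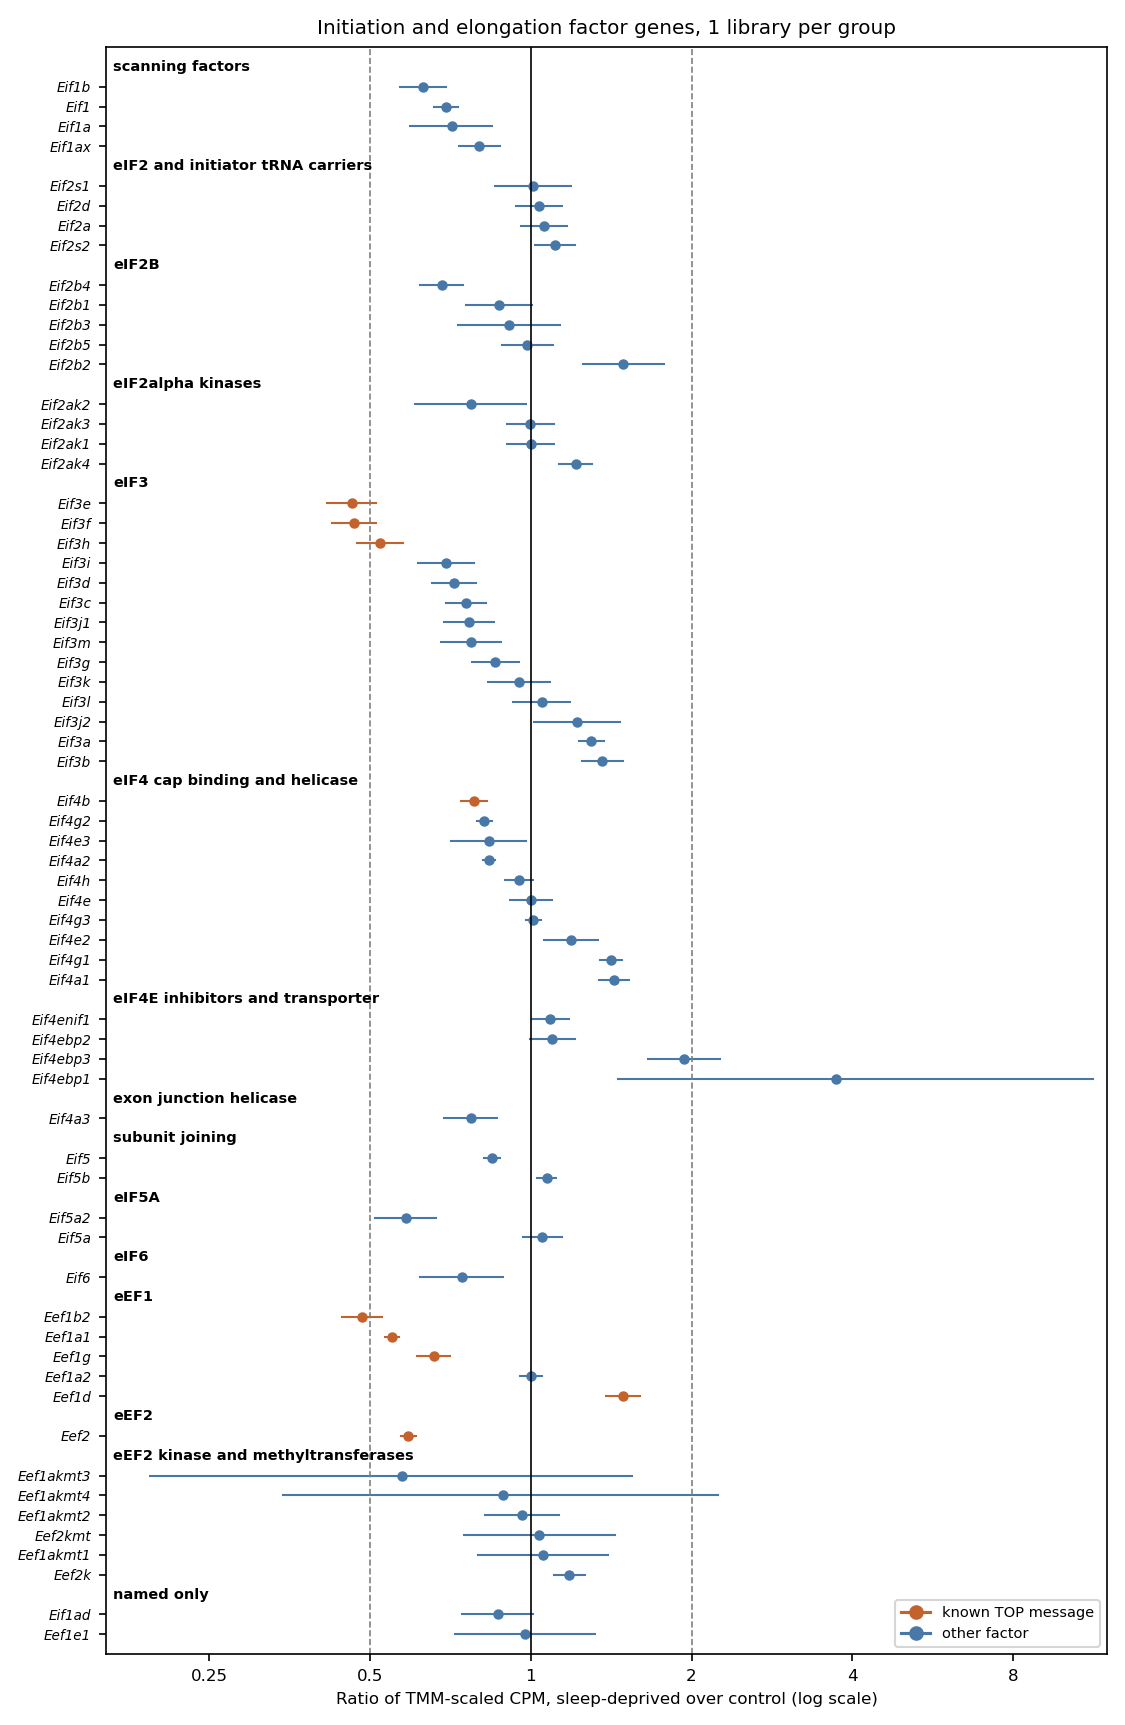
Ratio of TMM-scaled CPM, sleep-deprived over control, on a log axis for the 65 measured members grouped by complex; points are the ratios, bars the 95% counting intervals, orange marks TOP messages, dashed lines stand at 0.5 and 2, and each group is 1 library. Most members lie near 1, while Eif3e (0.462), Eif3f (0.467) and Eef1b2 (0.483) lie lowest and Eif4ebp1 (3.73), with a wide interval, lies highest.

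The lower ratios gathered among the factors whose messages are known TOP messages. This list of 9, Eef1a1, Eef1b2, Eef1d, Eef1g, Eef2, Eif3e, Eif3f, Eif3h and Eif4b, had a median ratio of 0.549 (−0.86 on the log2 scale). Of the 9, 8 were below 1, 7 were lower past 1.5-fold and 3 were called lower, and Eef1d alone was above 1. Their summed level was 2378 CPM in control against 1449 CPM after sleep deprivation, a ratio of 0.609 (0.599 to 0.620). The other 56 measured members had a median of 0.981, with 0 called lower and 1 higher, 2 lower past 1.5-fold (Eif1b and Eif5a2), 2 higher past 1.5-fold (Eif4ebp1 and Eif4ebp3), and a summed level of 5740 and 5479 CPM. Cytosolic ribosomal protein genes, the main class of TOP messages, had a median of 0.581 over 82 measured genes with 23 called lower and 0 higher, and summed to 9433 and 5165 CPM. The TOP list was written with the ribosomal protein result of these data known, so its direction is a description and no independent evidence. The median of the TOP factors was 0.617 with a transcript length offset, 0.588 over protein-coding transcripts alone and 0.536 without Eef1d.

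The start sites of the 5 TOP factors found in a RefSeq promoter table (build GRCm38.p6) are shown because the TOP tract lies there. Each line gives 10 bases before the annotated start and 20 from it on, 5′ to 3′ on the gene's strand, so that the start is the 11th base. Capitals mark each run of 5 or more C or T that begins with C.

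Eef1a1, chr9:78481705-78481734, minus strand: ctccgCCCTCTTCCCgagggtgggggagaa
Eef1b2, chr1:63176821-63176850, plus strand: ctgcagttccgccggaagtagccgaggcct
Eef2, chr10:81176621-81176650, plus strand: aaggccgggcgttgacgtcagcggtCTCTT
Eif3f, chr7:108934405-108934434, plus strand: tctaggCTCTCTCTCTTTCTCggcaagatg
Eif4b, chr15:102073763-102073792, plus strand: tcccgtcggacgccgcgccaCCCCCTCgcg

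In Eif3f the annotated start lies on a C inside the long run, and in Eef1a1 the run CCCTCTTCCC spans the annotated start. In Eef2 and Eif4b the run lies downstream of the annotated start, and the Eef1b2 window holds none. That window covers the first base of the transcript Eef1b2-204 (63176825). The transcripts Eef1b2-205, with most of the gene's reads, and Eef1b2-209 begin downstream of it, at 63177145 and 63177130. A run somewhere in the 30 bases was present in 4 of the 5 TOP factors (80.0%), in 19 of 60 start sites of other members (31.7%), in 47 of 76 of ribosomal protein genes (61.8%) and in 35.8% of all 32851 promoters. A C exactly at the annotated start, followed by at least 4 C or T, was found in 1 of the 5, in 0 of the 60, in 14 of 76 (18.4%) and in 823 of the 32851 (2.51%). Runs that span the annotated start also occurred in members off the TOP list. Examples are Eif3l, Eif2b5 and a start site of Eif2ak4, whose gene ratios were 1.05, 0.986 and 1.21. Annotated starts can lie some bases from the base a cell uses, and the RNA's own 5′ ends were not measured here. The promoter table held 50 of the 66 members, and Eef1d, Eef1g, Eif3e and Eif3h of the TOP list were not matched.

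Among the elongation factors, the eEF1 genes had a median ratio of 0.658 over 5 genes and a summed level of 1426 CPM in control against 980 CPM after sleep deprivation. Eef1a1 (chr9:78478449-78489151), the eEF1A gene of most cells, was at 856.3 and 856.0 CPM in the control files and at 470.8 and 469.6 CPM in the sleep-deprived files. The ratio was 0.549 (0.533 to 0.566). Eef1a2, the eEF1A gene of neurons and muscle, was at 246.4 and 247.8 CPM in control and at 246.3 and 247.7 CPM in sleep-deprived files, a ratio of 1.0 (0.955 to 1.05). The ratio of Eef1a1 to Eef1a2 reads was 3.48 and 3.45 in the control files and 1.91 and 1.90 in the sleep-deprived files. Of the 31-base stretches of Eef1a1 51.5% also occur in other genes, among them the pseudogene Gm13456, which was at 3.8 and 3.3 reads.

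The exchange factor subunits went different ways. Eef1b2 (chr1:63176825-63180486), which encodes the nucleotide exchange subunit eEF1B alpha, was at 108.9 and 108.7 CPM in control and at 52.37 and 52.67 CPM in sleep-deprived files, a ratio of 0.483 (0.442 to 0.527). Most of this gene's reads were assigned to Eef1b2-205, a transcript of the nonsense-mediated decay class, a class whose reading frame ends early. That transcript had 70.5% and 69.4% of the gene's reads in the control files and 43.0% and 45.6% in sleep-deprived files, and a ratio of 0.306 (0.269 to 0.346). The protein-coding Eef1b2-209 was at 152 and 153 reads, a ratio of 1.07 (0.850 to 1.35), and over all protein-coding transcripts Eef1b2 had a ratio of 0.849 and was not called. The lower level of Eef1b2 was thus mainly that of a transcript not annotated as coding, as the transcripts were divided by the authors' estimate.

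Eef1d, the other exchange subunit, was at 83.14 and 82.94 CPM in control and at 123.4 and 123.5 CPM in sleep-deprived files, a ratio of 1.49 (1.38 to 1.60), and 1.17 with the transcript length offset. It was the 1 eEF1 gene above 1 by more than counting error, and its share between transcripts differed as well. The protein-coding Eef1d-204, with 10 exons, held 11.8% and 13.6% of the gene's reads in the control files and 30.3% and 28.9% in sleep-deprived files, a ratio of 3.46 (2.89 to 4.16). The protein-coding Eef1d-207, with 7 exons, was at 0.801 (0.686 to 0.935). Eef1g, the scaffold subunit, was at 131.0 and 131.6 CPM in control and at 86.18 and 86.46 CPM in sleep-deprived files, a ratio of 0.658 (0.612 to 0.707), with 47.6% of its stretches shared, among others with Gm4366.

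Eef2 (chr10:81176631-81182498), the translocation factor, was at 754.0 and 753.9 CPM in control and at 444.7 and 444.2 CPM in sleep-deprived files, a ratio of 0.590 (0.572 to 0.608). Its inhibitory kinase Eef2k was at 113.5 and 113.1 CPM in control and at 133.4 and 134.0 CPM in sleep-deprived files, a ratio of 1.18 (1.11 to 1.26). The ratio of Eef2 to Eef2k reads was 6.64 and 6.67 in control and 3.33 and 3.32 in sleep-deprived files. The methyltransferases that modify eEF1A and eEF2 had few reads, between 12 (Eef1akmt4) and 336 (Eef1akmt2) in control. Eef1akmt1, Eef1akmt2 and Eef2kmt had ratios of 1.05, 0.963 and 1.04, each with an interval that holds 1, and Eef1akmt3 and Eef1akmt4 rested on 13 and 12 control reads. Eef1e1, which despite its name belongs to the tRNA synthetase complex, was at 0.976 (0.722 to 1.32), while the transcript length offset gave 0.571.

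Of the scanning factors, all 4 genes were below 1, with a median of 0.701 and a summed level of 412 and 289 CPM, and 0 were called at 2-fold. Eif1, which guards start codon choice, was at 242.6 and 243.0 CPM in control and at 168.5 and 167.7 CPM in sleep-deprived files, a ratio of 0.693 (0.657 to 0.729). Its ratio was 0.480 with the transcript length offset, which made it a lower call, and 0.816 over protein-coding transcripts, since the non-coding Eif1-202 was at 822 and 210 reads. Its paralog Eif1b was at 70.35 and 72.36 CPM in control and at 44.26 and 45.18 CPM in sleep-deprived files, a ratio of 0.627 (0.568 to 0.693). Eif1a and the X-linked Eif1ax, which encode eIF1A, had ratios of 0.711 (0.595 to 0.847) and 0.800 (0.732 to 0.875). None of the 4 is on the TOP list.

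The genes of eIF2 and of other initiator tRNA carriers stayed near 1, with summed levels of 196 and 209 CPM. Eif2s1, whose product is the alpha subunit that stress kinases phosphorylate, had a ratio of 1.01 (0.855 to 1.19), and Eif2s2, the beta subunit, one of 1.11 (1.02 to 1.21). Eif2a and Eif2d, which can carry initiator tRNA without eIF2, were at 1.06 and 1.04. The eIF2B genes, whose products recharge eIF2 with GTP, spread more widely around a median of 0.911. Eif2b4 was at 79.16 and 78.48 CPM in control and at 53.93 and 53.52 CPM in sleep-deprived files, a ratio of 0.681 (0.621 to 0.747). Eif2b2 was at 14.72 and 14.90 CPM in control and at 21.95 and 22.20 CPM in sleep-deprived files, a ratio of 1.49 (1.25 to 1.78). Both depended on transcript length, for with the offset Eif2b4 had a ratio of 0.374 and Eif2b2 one of 2.09, which made each a call. Over protein-coding transcripts both lay nearer 1, Eif2b4 at 0.757 and Eif2b2 at 1.205. Eif2b1, Eif2b3 and Eif2b5 were at 0.871, 0.911 and 0.986, with intervals that hold 1.

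The 4 kinases that phosphorylate eIF2 alpha under stress had a median of 0.998 and 0 calls. Eif2ak1 (HRI), which answers to heme shortage, was at 1.0 (0.902 to 1.11), and Eif2ak3 (PERK), the sensor of endoplasmic reticulum stress, at 0.997 (0.901 to 1.10). Eif2ak4 (GCN2), which answers to uncharged tRNA, was at 96.34 CPM in control against 116.9 CPM after sleep deprivation, a ratio of 1.21 (1.13 to 1.30). Eif2ak2 (PKR), the sensor of double-stranded RNA, lay at 11.15 CPM in control against 8.62 CPM, with a ratio of 0.773 (0.607 to 0.982).

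eIF3, the largest initiation factor, had a median ratio of 0.770 over 14 genes, with 10 below 1 and 4 above, and a summed level of 922 CPM in control against 782 CPM after sleep deprivation (0.848, 0.827 to 0.869). Eif3e (chr15:43250058-43282719) was at 76.98 and 76.95 CPM in control and at 36.00 and 35.14 CPM in sleep-deprived files, a ratio of 0.462 (0.415 to 0.513). Eif3f (chr7:108934417-108942951) was at 98.26 and 97.84 CPM in control and at 45.74 and 45.60 CPM in sleep-deprived files, a ratio of 0.467 (0.425 to 0.512), and 0.552 with the transcript length offset, where it was not called. Eif3h (chr15:51786558-51865523) was at 80.68 and 79.67 CPM in control and at 41.92 and 41.78 CPM in sleep-deprived files, a ratio of 0.522 (0.472 to 0.576), and 0.495 over protein-coding transcripts, where it was called lower. These 3 subunits are those of eIF3 on the TOP list, belong to its PCI and MPN core and had the lowest ratios of the 14. Without them the median over the other 11 was 0.858.

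At the other end of eIF3, Eif3b and Eif3a, which encode the RNA-binding scaffolds of the complex, lay above 1. Eif3b was at 59.41 and 59.79 CPM in control and at 81.59 and 80.81 CPM in sleep-deprived files, a ratio of 1.36 (1.25 to 1.49). Eif3a was at 172.3 and 173.7 CPM in control and at 224.9 and 224.3 CPM in sleep-deprived files, a ratio of 1.30 (1.23 to 1.37). With the transcript length offset they were at 1.10 and 1.04. The ratio of Eif3a to Eif3e reads was 2.24 and 2.26 in control and 6.25 and 6.38 in sleep-deprived files, so messages for subunits of a single complex differed in direction. Between these ends lay Eif3i (0.693), Eif3d (0.718, and 0.998 with the offset), Eif3c (0.756), Eif3m (0.773), Eif3g (0.858), Eif3k (0.950) and Eif3l (1.05).

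The 8 genes of the PCI and MPN core had a median of 0.765 and the other 6 subunits one of 0.811, a small distance beside the spread within either. Eif3l kept its total while its transcripts shifted, for the retained-intron transcript Eif3l-204 held 22.9% and 23.6% of its reads in the control files against 53.7% and 56.2% in the others. Over protein-coding transcripts the ratio of Eif3l was 0.620. The near-identical Eif3j1 and Eif3j2 share 94.0% of the 31-base stretches of Eif3j2, so their ratios of 0.766 and 1.22 are uncertain, and the ratio of their sum was 0.864.

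The cap-binding and helicase factors of eIF4 had a median of 0.975 over 10 measured genes and summed levels of 2735 and 2590 CPM. No member of this complex passed 1.5-fold by reads of the whole gene, yet paralogs differed, and some values moved with the transcripts or lengths used. Eif4g1, the main scaffold between cap and ribosome, was at 214.6 and 214.5 CPM in control and at 304.0 and 302.0 CPM in sleep-deprived files, a ratio of 1.41 (1.35 to 1.48), 1.10 with the transcript length offset and 1.68 over protein-coding transcripts. Eif4g2 (DAP5), which lacks the eIF4E binding site, was at 565.9 and 565.1 CPM in control and at 462.7 and 461.8 CPM in sleep-deprived files, a ratio of 0.818 (0.792 to 0.845). Eif4g3 was at 1.01 (0.980 to 1.04). Eif4a1, the helicase gene of growing cells, was at 107.4 and 106.8 CPM in control and at 156.8 and 149.9 CPM in sleep-deprived files, a ratio of 1.43 (1.34 to 1.53), and 1.58 with the offset. Of its stretches 31.1% also occur in other genes, among them the pseudogene Eif4a-ps4, which was at 466.4 and 413.0 reads. Eif4a2 (chr16:23107444-23114136), the second helicase gene and the more abundant here, was at 831.1 and 832.3 CPM in control and at 693.8 and 694.6 CPM in sleep-deprived files, a ratio of 0.835 (0.813 to 0.857). Eif4b, the helicase cofactor and a TOP message, was at 189.8 and 190.6 CPM in control and at 148.9 and 148.4 CPM in sleep-deprived files, a ratio of 0.782 (0.739 to 0.827), and its relative Eif4h was at 0.950 (0.894 to 1.01).

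In Eif4a2 the reads shifted between transcripts. Eif4a2-210, of the nonsense-mediated decay class, had 46.3% and 45.7% of the gene's reads in the control files and 21.9% and 22.4% in sleep-deprived files, with 5767 and 2176 reads and a ratio of 0.402 (0.382 to 0.422). The protein-coding Eif4a2-202 had 41.7% and 42.3% in control and 60.6% and 60.3% in sleep-deprived files, with 5262 and 5942 reads and a ratio of 1.20 (1.16 to 1.25). Over protein-coding transcripts the gene had a ratio of 1.20, above 1, where the ratio of the whole gene was below 1. The protein-coding Eif4a2-201 was lower, however, at 146 and 33 reads, a ratio of 0.24. Its last exon has 781 bases, as in Eif4a2-210, against 1596 bases in Eif4a2-202. The decay-class Eif4a2-204, with a last exon of 764 bases, was at 0.314. Whether the shift followed the class, exon 4 or the last exon was not tested. Eif4a2-202 and Eif4a2-210 differ by exon 4 of the 11 of Eif4a2-202, which Eif4a2-210 lacks, and also in their last exons. The exon (GRCm38 chr16:23109120-23109259, plus strand) is coding, has 140 bases, which is no multiple of a codon, and is printed whole because its presence or absence sets the reading frame downstream.

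Eif4a2 exon 4: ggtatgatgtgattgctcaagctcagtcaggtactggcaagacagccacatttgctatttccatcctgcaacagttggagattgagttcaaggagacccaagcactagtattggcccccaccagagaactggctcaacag

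Eif4e (chr3:138526179-138559696), the cap-binding protein, had the same total in both libraries, with 66.37 and 66.51 CPM in control, 65.85 and 66.88 CPM in sleep-deprived files and a ratio of 1.0 (0.914 to 1.10). Its transcripts were divided differently. Eif4e-205, with a last exon of 285 bases, held 9.44% and 8.94% of the reads in the control files and 24.8% and 24.0% in sleep-deprived files, a ratio of 2.65 (2.07 to 3.41). Eif4e-201, with a last exon of 4307 bases, was at 909 and 679 reads, a ratio of 0.795 (0.719 to 0.879). A length offset therefore turned the ratio of Eif4e from 1.0 to 2.69. The related cap-binding genes Eif4e2 and Eif4e3 were at 1.19 (1.06 to 1.34) and 0.835 (0.710 to 0.981).

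In the eIF4G genes, too, reads shifted between transcripts. In Eif4g3, Eif4g3-202, with 35 exons and a last exon of 1107 bases, held 12.1% and 13.1% of the reads in the control files and 42.6% and 38.9% in sleep-deprived files, a ratio of 3.27 (3.05 to 3.51). The shorter Eif4g3-208 (11 exons) and Eif4g3-212 (22 exons), both with a last exon of 2536 bases, were at 0.536 and 0.575. In Eif4g2, Eif4g2-213, with a last exon of 5008 bases, was at 0.616 (0.586 to 0.647), and Eif4g2-206, with a last exon of 826 bases, at 1.20 (1.14 to 1.26). In Eif4g1, Eif4g1-201 (33 exons) was at 324 and 1026 reads, a ratio of 3.37 (2.97 to 3.83). Its last exon of 638 bases is nearly the same as in Eif4g1-217 (637 bases, 29 exons), at 0.850 (0.772 to 0.935). Replicate files differed in the estimate for Eif4g1-217, at 849.5 and 1079.2 for control, 557.7 and 981.8 for sleep deprivation. Its ratio is therefore less certain than the interval, which covers counting error only. Eif4g1-201 was uneven too (388.5 and 259.9, then 1137.5 and 913.6) but higher in both sleep-deprived files. In 13 members the 2 leading transcripts had last exons at least 200 bases apart. The transcript with the longer last exon had the lower ratio in 5 of these members and the higher in 8. Leading transcripts were taken from any annotated class, non-coding ones included, so the count is a description only. Which feature of a transcript the estimates followed, and whether read coverage along transcripts differed between the libraries, was not tested.

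**Figure D2:**
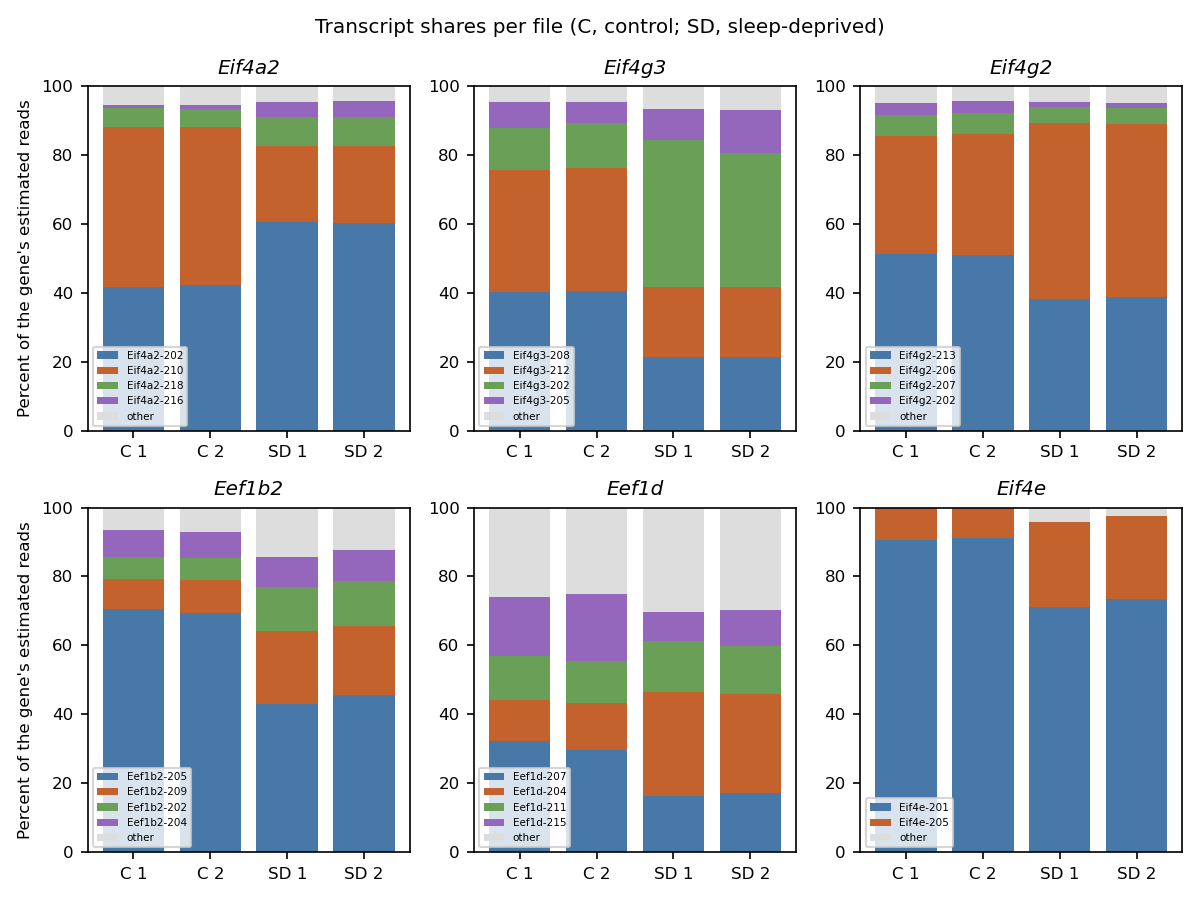
Share of a gene's estimated reads, in percent, taken by its leading transcripts in each of the 4 files (C, control; SD, sleep-deprived), with all other transcripts in grey. The files of a group lie close together, and the share of the decay-class Eif4a2-210 is 46.3% and 45.7% in control and 21.9% and 22.4% in sleep-deprived files.

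The inhibitors and the transporter of eIF4E had a median ratio of 1.46 over 4 genes and summed levels of 150 and 180 CPM. Eif4ebp2, the main 4E-BP of the brain, which mTORC1 releases from eIF4E, was at 54.43 and 54.01 CPM in control and at 59.71 and 59.17 CPM in sleep-deprived files, a ratio of 1.10 (0.996 to 1.21). Eif4ebp1 (chr8:27260329-27276674) was at 0.398 and 0.399 CPM in control and at 1.48 and 1.49 CPM in sleep-deprived files, and its call as higher, 3.73 (1.45 to 11.3), rested on 6 and 21 reads. It was not called over protein-coding transcripts, at 2.38. Eif4ebp3 was at 18.31 and 16.46 CPM in control and at 31.95 and 35.27 CPM in sleep-deprived files, a ratio of 1.93 (1.66 to 2.26). It reached 2.05 and was called without control replicate 1, and also without sleep-deprived replicate 1. Of the exon bases of Eif4ebp3 67.3% lie in AC115631.1 on the same strand, so its reads are uncertain. Eif4enif1, the transporter 4E-T, was at 1.09 (1.003 to 1.18).

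Subunit joining and the remaining factors followed no shared direction. Eif5, which makes eIF2 release the initiator tRNA at the start codon, had a ratio of 0.845 (0.816 to 0.876), and Eif5b, the GTPase of subunit joining, one of 1.07 (1.03 to 1.12). Eif5a, which helps ribosomes past difficult peptide bonds, was at 1.05 (0.966 to 1.14). Its paralog Eif5a2 was at 41.70 and 41.90 CPM in control and at 24.42 and 24.32 CPM in sleep-deprived files, a ratio of 0.583 (0.510 to 0.666). The ratio of Eif5a to Eif5a2 reads was 1.78 in both control files and 3.18 and 3.23 in sleep-deprived files. Eif6, which keeps large subunits from joining too early, was at 0.742 (0.620 to 0.887), Eif4a3, a helicase of the exon junction complex, at 0.772 (0.689 to 0.864), and Eif1ad at 0.866 (0.744 to 1.01).

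**Figure D3:**
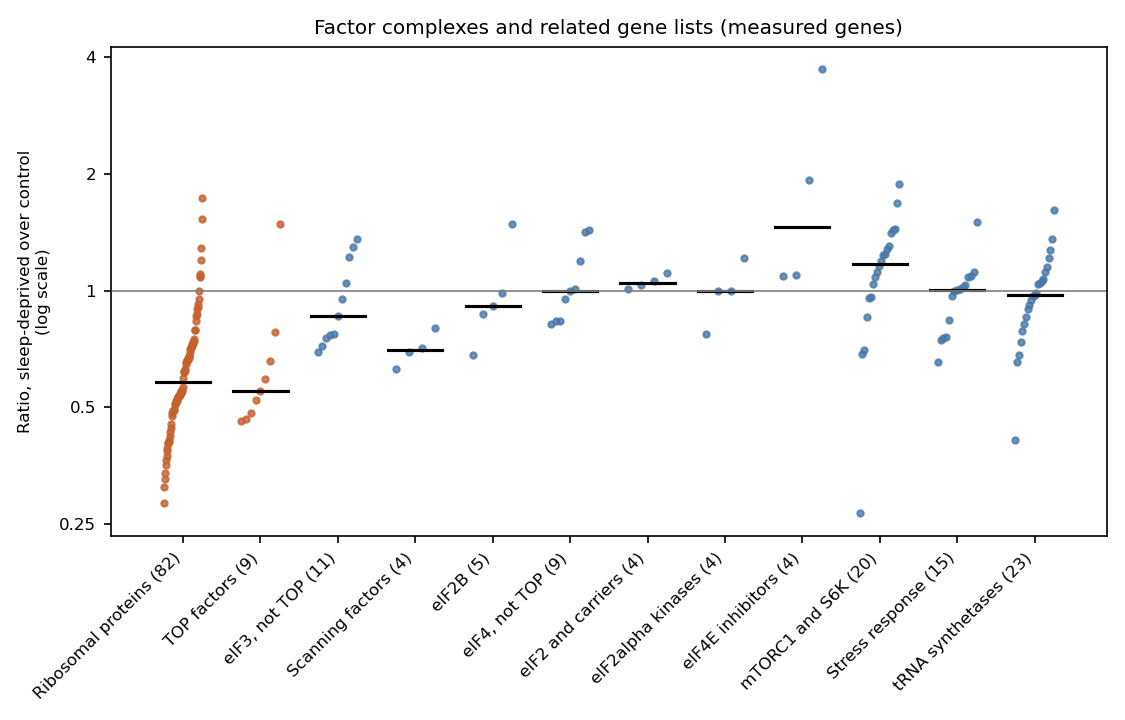
Ratio, sleep-deprived over control, on a log axis for every measured gene of 12 groups of factors and related lists (number of genes in brackets); each point is 1 gene, each black line the group's median, and the TOP factors are taken out of eIF3 and eIF4. The TOP factors (median 0.549), ribosomal protein genes (0.581) and scanning factors (0.701) lie lower than eIF3 without its TOP members (0.858) and the eIF2 group (1.05).

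Levels of different genes were compared per length, as the authors' TPM, their length-scaled abundance, within a library. Mitochondrially encoded genes took 16.0% and 15.8% of TPM in the control files and 8.22% and 8.05% in the sleep-deprived files, and the median TPM ratio of measured genes was 1.16. TPM were therefore not used to compare the libraries. In control, Eef1a1 (1079 TPM), Eif1 (965 TPM), Eif4a2 (825 TPM), Eif4g2 (738 TPM) and Eef2 (502 TPM) led the members. In the sleep-deprived library the order was Eif4a2 (823 TPM), Eef1a1 (744 TPM), Eif4g2 (577 TPM), Eif1 (539 TPM) and Eef2 (391 TPM). Among eIF3 genes, Eif3h was highest in control (126 TPM) and Eif3a in the sleep-deprived library (139 TPM), and the copies Eif3j1 and Eif3j2 were the lowest in both.

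**Figure D4:**
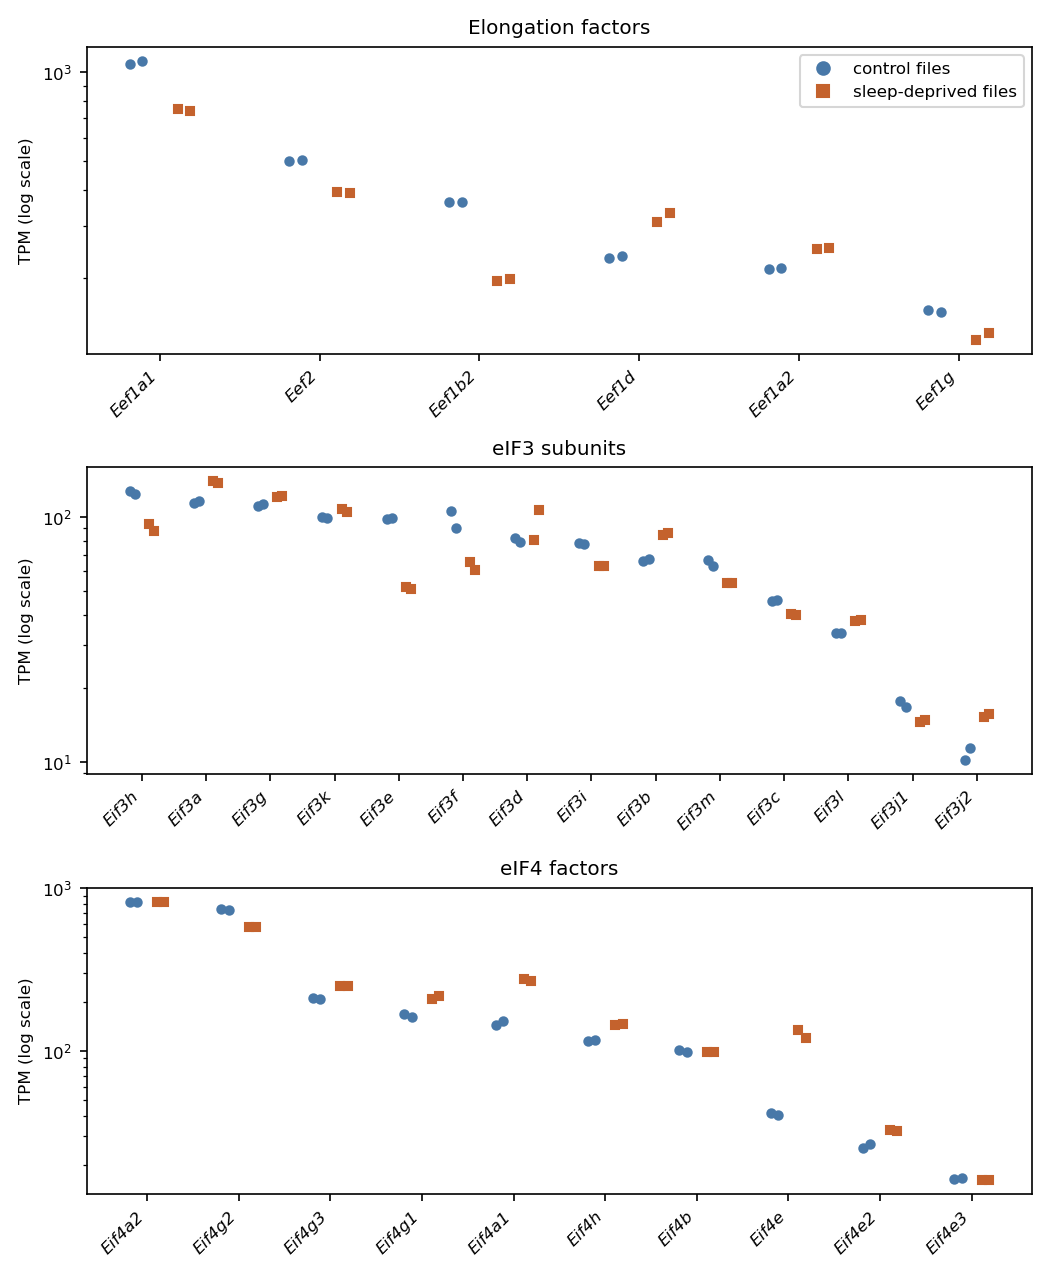
Deposited TPM per file on a log axis for the elongation factors, eIF3 and eIF4, with control and sleep-deprived files in separate colours. Eef1a1 is the highest of the eEF1 genes in all 4 files (1079 TPM in control and 744 TPM in sleep-deprived samples on average), and files of a group lie close together, apart from Eif3d in the sleep-deprived files.

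Within most paralog sets the leading gene by TPM was the same in all 4 files. The exception was the pair Eif3j1 and Eif3j2, where Eif3j1 led with 63.5% and 59.4% in control and Eif3j2 with 51.3% and 51.5% in sleep-deprived files, though reads of the pair cannot be told apart well. Eif1a took 37.4% and 37.7% of eIF1A TPM in control and 37.1% and 37.3% in sleep-deprived files. Eef1a1 took 83.2% and 83.4% of eEF1A TPM in control and 74.8% and 74.5% in sleep-deprived files. Eif4a2 took 85.1% and 84.5% of eIF4A TPM in control and 74.8% and 75.5% in sleep-deprived files. The sets of eEF1A and eIF4A were thus led less strongly in the sleep-deprived files. Eif4g2 took 66.1% and 66.3% of eIF4G TPM in control and 55.6% and 55.4% in sleep-deprived files, and Eif5a took 90.3% of eIF5A TPM in both control files and 95% and 95.1% in sleep-deprived files. Eif4e took 49.7% and 48.4% of its set's TPM in control and 73.5% and 71.5% in sleep-deprived files, which follows the shift to the short Eif4e-205, since by reads its shares were 52.4% and 51.1%.

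By annotated class, the summed reads of the members shifted away from decay-class transcripts and towards retained introns. The decay class held 7.24% and 7.15% of the members' reads in the control files and 4.22% and 4.17% in sleep-deprived files, while over all measured genes it held 4.03% and 4.05% in control and 4.60% and 4.61% in sleep-deprived files. In control Eif4a2-210 and Eef1b2-205 were the members' most abundant transcripts of that class. In the sleep-deprived library Eif4a2-210 still was, while Eef1b2-205 (329 reads) lay below Eif4g1-222 (574 reads) and Eif2a-207 (488 reads). Single members went both ways. The decay share of Eif2a was 72.2% and 72.6% in control and 63.5% and 58.6% in sleep-deprived files. That of Eif2d was 20.7% and 21.6% in control and 31.5% and 31.3% in sleep-deprived files. Retained-intron transcripts held 7.20% and 7.01% of the members' reads in the control files and 10.7% and 10.5% in sleep-deprived files, beside 10.7% in both control and 13.3% in both sleep-deprived files over all measured genes. Their share was higher in both sleep-deprived files than in either control file in 32 of 41 members (78.0%), where the same held for 3619 of 6595 genes (54.9%). It was lower in both in 5 members and in 1847 genes. Genes with at least 100 reads in every file were counted, and members and all genes were not matched for read depth. The files of a group are not independent, so these counts carry no error for the groups. Protein-coding transcripts held between 80.6% and 81.9% of the members' reads in every file.

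Gene length and level were set beside the ratios. Among members with at least 20 CPM, the 14 with an effective length under 1000 bases had a median of 0.772, and the 9 of at least 4000 bases one of 1.01. All protein-coding genes of that level had medians of 0.969 under 1000 bases and 1.02 from 4000 bases on. The short members included 3 TOP factors and the 9 long ones 0. The part of length in the lower ratios was not tested.

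The lists around the factors held between 0 and 2 genes called in either direction, apart from the ribosomal protein genes, and are read against the 5.65% lower and 4.24% higher of all measured genes. Of 20 mTORC1 and S6 kinase genes 0 were higher and 1 lower, Ddit4l at 1.33 and 0.353 CPM (0.266, 0.0780 to 0.731), with a median of 1.17. Of 15 measured genes of the integrated stress response, which follows eIF2 alpha phosphorylation, 0 were called and the median was 1.005. Atf4, its central transcription factor, lay at 136 and 153 CPM, with a ratio of 1.12. Of 13 measured genes of termination, recycling and rescue 2 were higher and 0 lower, with a median of 1.19. These were Ltn1, the ligase that marks chains on stalled ribosomes, at 76.6 and 165 CPM (2.16, 2.01 to 2.32), and Gtpbp2, a rescue GTPase, at 117 and 242 CPM (2.07, 1.95 to 2.19). Both act on ribosomes that have stopped, a step the members do not cover.

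Of 21 other cap, tail and scanning partners 0 were called and the median was 1.07. Tpt1, at 220 and 112 CPM, had the lowest ratio (0.508) and Gigyf1 the highest (1.78). Of 23 measured tRNA synthetase genes and scaffolds 1 was lower and 0 higher, the scaffold Aimp1 at 51.4 and 21.1 CPM (0.411, 0.359 to 0.470), with a median of 0.976. Of 10 mitochondrial translation factors 1 was higher and 0 lower, the exchange factor Tsfm at 6.51 and 15.3 CPM (2.36, 1.85 to 3.02), with a median of 1.15. Ribosomal protein genes stood apart from these lists, with 51 of 82 lower past 1.5-fold and 1 higher, and 75 below 1.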

How the data were processed

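The authors' deposited files give, per the file headers, transcript length, effective length, TPM and an estimated read number for 116546 mouse transcripts. The submitters' processing notes name Salmon, DESeq2 and mm10. Not given in the sources used here are the Salmon version, the annotation and strand use. Estimated counts are unnormalized and deposited as fractional values, and TPM are the authors' length-scaled values.

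Transcript identifiers, with versions removed, were looked up in GENCODE mouse release 21 (GRCm38) (115898, 99.4%) and counts were summed per gene. The 2 files of a group were averaged as 1 library after a chi-square check over genes with at least 20 reads. Rounded counts were scaled by TMM in edgeR 4.0.16 (R 4.3.3), and filterByExpr with a minimum count of 10 kept 14907 genes. Intervals of ratios are exact conditional (Clopper-Pearson) 95% intervals, and a library under 3 reads was set to 3 for a fold. Sequenced reads are not independent molecules. The call was tested on simulated data. The offset divides counts by the gene's effective length in each library. Shared 31-base stretches were counted in the release's transcripts, and promoters are RefSeq's (GRCm38.p6).

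Members and lists were chosen with earlier results of these data known. Named with values were called members, members past 1.5-fold, the ends and the most abundant gene of each of 14 complexes, paralogs, and up to 4 genes of each related list. Transcripts, exons and start sites shown were chosen after their values were seen. The planned edgeR and DESeq2 tests and the replicate block were not run, because a group is 1 library.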

Additional observations from a re-analysis of the deposited data

How the results depend on the processing

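No paired analysis was possible because each group is 1 library once files that differ by less than sampling noise are averaged. Members called lower were 3, and 9 at 1.5-fold. Members called higher were 1, and 3 with the transcript length offset (Eif2b2, Eif4e and Eif4ebp1), 0 over protein-coding transcripts and 2 at 1.5-fold. Leaving out 1 file gave between 1 and 2, the second being Eif4ebp3 without control replicate 1 or without sleep-deprived replicate 1. At 1.5-fold, genes called over the whole table were 1856 higher in place of 632 and 2031 lower in place of 842. The median of the TOP factors was 0.531 when scaled by library totals, 0.617 with the offset and 0.588 over protein-coding transcripts, and the median of eEF1 was 0.849 over protein-coding transcripts. The lower calls were Eef1b2, Eif3e and Eif3f, but over protein-coding transcripts Eif3h took the place of Eef1b2, and with the offset Eif1 and Eif2b4 replaced Eif3f. The cause was not tested. DESeq2 size factors, upper-quartile scaling, no filter and each file left out moved 0 of 71 further values by more than counting error. Library totals moved 5, protein-coding transcripts 15 and the offset 30. Counting depth limits members with few reads, such as Eif4ebp1, Eef1akmt3 and Eef1akmt4. Differences between mice or pulldowns could not be estimated.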
